A study of Mus musculus with 20 samples.

Results

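In mouse embryonic stem (ES) cells, 24 distal regions carried the coactivator p300 in both p300 libraries while the 1 kb bin that held them stayed under the thresholds for both histone marks of enhancers, H3K4me1 and H3K27ac. They were 24 of 6036 distal p300 sites, a share of 0.398% (Wilson 95% interval 0.267 to 0.591). Reads of chromatin immunoprecipitation sequencing (ChIP-seq) were counted in 1 kb bins of the 19 autosomes and given as RPM, reads per 1000000 distinct reads of the library, so that libraries of different depth can be set side by side. A bin was distal where H3K4me3, the histone mark of promoters, was under 1.5 RPM in ES cells and in liver, in the bin and in both neighbours. A distal bin was taken where p300 was at least 3 RPM and at least 3 times the whole cell extract (WCE, chromatin without immunoprecipitation) plus 0.1 RPM in each p300 library, where the mean H3K4me1 was under 0.8 RPM, and where the mean H3K27ac was under 0.7 RPM. All 24 regions were single bins. They are called low-mark p300 sites here and not sites without enhancer marks, because 19 of the 24 had a bin past a mark threshold beside them.

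The series held 20 libraries in 16 groups. The ES cells were V6.5 (C57BL/6-129) for p300 (2 libraries), WCE, H3, H3K4me3, H3K27ac (2 libraries) and H3K4me1 replicate 1. H3K4me1 replicate 2 came from ES cells of that background with the doxycycline-inducible 4F2A transgene, and replicate 3 from the inbred C57BL/6 line j21, so the mean H3K4me1 runs over 3 lines while p300 was read in 1. ES cells had been off their fibroblast feeders for 2 passages for p300, WCE and H3K4me1 replicate 1, and for 1 passage for the other ES libraries. Single libraries were made from O6 induced pluripotent stem (iPS) cells, derived from mouse embryonic fibroblasts (MEFs) and kept for 2 passages without feeders (H3K4me1), from MEFs (H3K4me1, H3), from neural progenitor cells (NPCs) grown from 4-day-old embryoid bodies of a 129JAE-C57/B6 background (H3K27ac, and the DNA-binding factor Rfx1), and from whole perfused liver (H3K4me1, H3K27ac, H3, H3K4me3, WCE). The labels give no strain for the MEFs and no strain or age for the liver, and do not say whether replicates came from separate cultures. The label of p300 replicate 2 names p301 in 1 field and p300 in the others.

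A value of 1 RPM stood for 0.705 to 14.5 distinct reads, depending on the library. The iPS H3K4me1 library (2.32 reads per RPM), the ES H3K4me3 library (2.37) that helps to define distal bins, and the NPC Rfx1 library (0.705) were shallow, and 1 read was worth 0.431 RPM in the first. In the ES H3K4me3 and the NPC Rfx1 library, 70% and 72.5% of reads repeated a position and strand already seen.

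p300 and its relative CBP are acetyltransferases that transcription factors bring to DNA, and H3K27ac is one of the marks they lay down. H3K4me1 is deposited by the MLL3 and MLL4 methyltransferases and is found over a wider area around enhancers. An enhancer with both marks is commonly called active and one with H3K4me1 alone poised or primed. Nucleosomes are displaced where factors bind, so the marks lie on the histones to either side of a p300 summit.

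Among the 6747 distal p300 bins, 6131 passed both mark thresholds, 545 passed H3K4me1 alone, 47 passed H3K27ac alone and 24 passed neither. Joined into sites, the same classes had 5428, 537, 47 and 24 members. The 24 sites lay on 16 of the 19 autosomes, with none on chromosomes 5, 8 or 9 and 2 on chromosome 18, whose positions are not given.

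**Figure D1:**
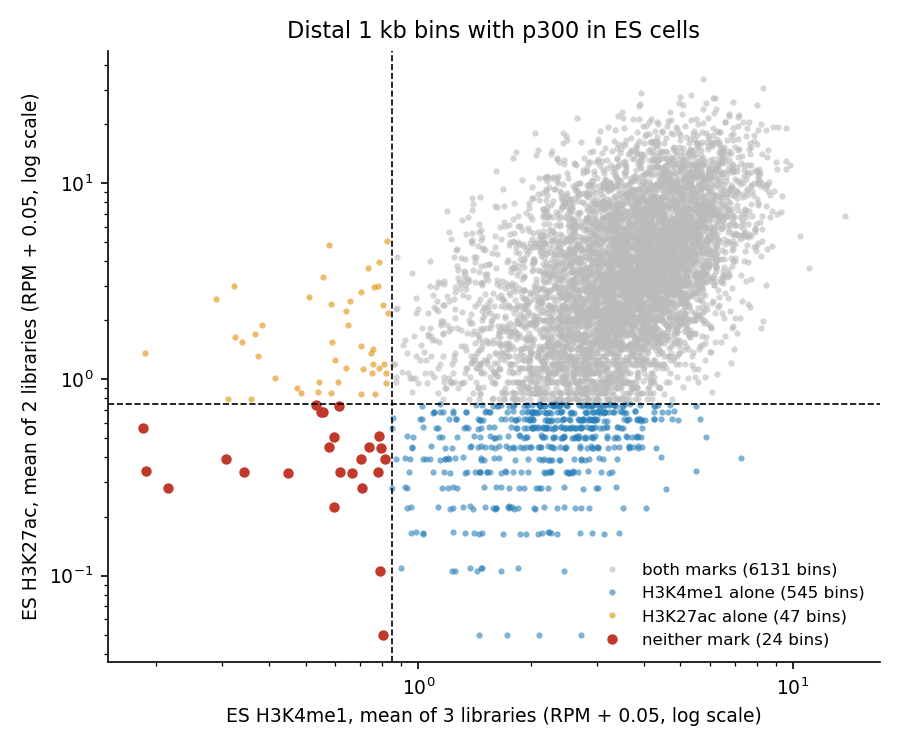
Mean ES H3K4me1 against mean ES H3K27ac in every distal p300 bin (RPM plus 0.05, both axes logarithmic), coloured by class, with the thresholds as dashed lines. The 24 low-mark bins (red) sit below both lines, many of them close to one, while 6131 bins (grey) lie past both.

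Distal p300 bins lay close to each threshold on both sides. At the p300 minimum, the site chr2:116885001-116886000 was the last inside, with 4.39 and 3.10 RPM in replicates 1 and 2, followed inward by chr12:14114001-14115000 (3.12 and 3.94 RPM) and chr15:45917001-45918000 (3.97 and 3.22 RPM). Just outside were chr4:14414001-14415000 and chr7:75001001-75002000, both at 2.97 and 3.10 RPM, and chr10:104055001-104056000 at 2.97 and 2.86 RPM. For H3K4me1 the sites chr12:14114001-14115000 (0.756 RPM) and chr2:81686001-81687000 (0.743 RPM) were among the last 3 inside. The p300 bins chr8:23422001-23423000 (0.802 RPM) and chr14:53297001-53298000 (0.808 RPM) were among the first 3 outside. For H3K27ac, chr1:184018001-184019000 (0.688 RPM) and chr13:80332001-80333000 (0.632 RPM) were inside, and chr3:75737001-75738000 and chr17:18228001-18229000 (both 0.744 RPM) outside.

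The sites were chosen by p300, WCE, H3K4me3 and the means of H3K4me1 and H3K27ac in their own bin, so these levels are a description. Over the 24 sites replicate 1 ranged from 3.12 to 10.2 RPM with a median of 3.97, and replicate 2 from 3.10 to 13.2 RPM with a median of 4.47. The value was higher in replicate 2 at 20 of the 24 sites. These levels rest on 777 and 1060 reads in all. Sites with both marks were higher, with medians of 5.67 and 5.49 RPM, and sites with H3K4me1 alone stood at 4.39 and 4.65 RPM.

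Of the 10 sites highest in p300 over WCE plus 0.1 RPM, by the lower of the 2 libraries, 9 lie outside chromosome 18. The first was chr16:82479001-82480000, with 4.53 and 5.01 RPM of p300 and no WCE read, a fold of 45.3 and 50.1. It was also remote, with the next p300 bin 2172 kb away and the next bin past both marks 2106 kb away. Next came chr2:40733001-40734000, the strongest of the 24, with 72 and 111 p300 reads, 10.2 and 13.2 RPM and a fold of 42.3 and 55.0. At chr7:104173001-104174000 p300 was lower, 3.26 and 3.58 RPM, and the fold of 32.6 and 35.8 came with no WCE read. The site chr13:86818001-86819000 had 7.37 and 7.40 RPM and a fold of 30.6 and 30.7.

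The next in that order were nearer to the middle of the set. At chr17:72787001-72788000 p300 was 4.25 and 6.32 RPM, a fold of 17.6 and 26.3. At chr7:26416001-26417000 it was 3.97 and 5.01 RPM, a fold of 16.5 and 20.8. The site chr1:53694001-53695000 had 6.09 and 7.28 RPM and a fold of 15.9 and 19.1. They were followed by chr15:16075001-16076000, at 3.54 and 5.13 RPM (14.7- and 21.3-fold), and chr4:145972001-145973000, at 3.26 and 4.53 RPM (13.5- and 18.8-fold). All 9 of these folds rest on 0 to 2 WCE reads and are coarse.

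The place of the p300 reads within the bin was not used to choose the sites. The summit, the centre of the 200 bp window with most fragment centres, was found in each library alone. The summits of the libraries lay a median of 19.4 bp apart over the 24 sites, at most 80 bp, and within 100 bp at 24 of 24 sites. The same held for 92.7% of sites with H3K4me1 alone, 85.1% with H3K27ac alone and 90.1% with both marks, where the medians were 25, 25 and 30 bp. Reads on the forward strand lay upstream of those on the reverse strand by a median of 158 bp in replicate 1 and 146 bp in replicate 2, against 142 and 140 bp at sites with both marks. Gaps between the strands ran from 67 to 283 bp over the 24 sites and both libraries, inside or near the insert lengths of 100 to 250 nt that the labels give. These distances and gaps lie within the ranges of the other classes.

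**Figure D2:**
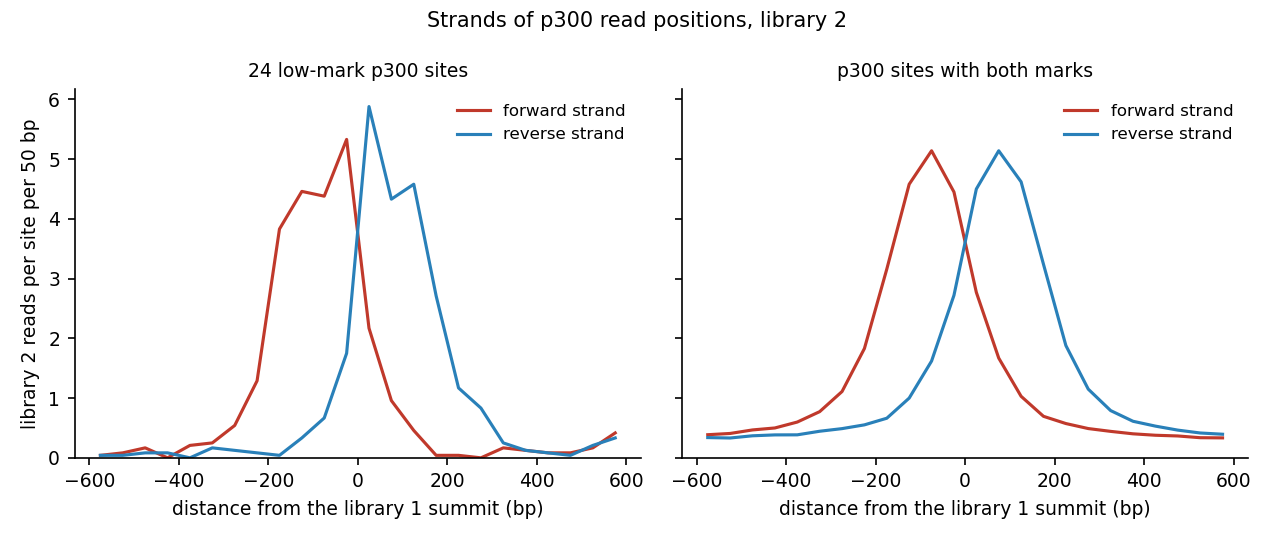
Reads of p300 replicate 2 per site and 50 bp step on each strand, against the distance from the summit found in replicate 1, for the 24 low-mark sites and the 5428 sites with both marks. In both panels the forward strand peaks before the summit and the reverse strand after it.

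The mark levels inside the bins were held down by the rule, so what can be described is where they lie beneath the thresholds. Mean H3K4me1 over the 24 bins was 0.672 RPM in replicate 1 (exact Poisson 95% interval 0.573 to 0.784), 0.529 in replicate 2 (0.439 to 0.632) and 0.385 in replicate 3 (0.293 to 0.498). These intervals, like the others here, cover counting error only. The 3 replicates averaged 0.529 RPM, against 0.134 RPM in the 2012778 distal bins under both thresholds, 0.316 RPM in all distal bins and 3.70 RPM at sites with both marks. The site mean was above the median of those under-threshold bins, 0.0862 RPM, at 24 of 24 sites. Those bins were taken whatever their p300. H3K27ac stood at 0.408 RPM in replicate 1 (0.327 to 0.504) and 0.318 in replicate 2 (0.246 to 0.406), a mean of 0.363, against 0.103 RPM in the under-threshold bins and 4.49 RPM at sites with both marks. Here 22 of 24 sites were above the under-threshold median of 0.0563 RPM. The rule used these marks, so both counts are a description and not a test. Divided by ES H3 in the same bins, H3K4me1 was 2.39 and H3K27ac 1.64, where all distal bins gave 0.82 and 0.605 and sites with both marks 7.38 and 8.97. Sites with H3K4me1 alone gave 5.34 and 1.06, and sites with H3K27ac alone 2.41 and 7.85. By this ratio H3K4me1 was near that of sites with H3K27ac alone, and H3K27ac above that of sites with H3K4me1 alone.

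Single libraries spread around these means. In at least 1 of the 3 H3K4me1 replicates, 13 of the 24 bins reached 0.8 RPM, and in at least 1 of the 2 H3K27ac replicates 2 bins reached 0.7 RPM. These counts have no background, as other bins of similar mean were not counted. With 10.1, 9.53 and 6.27 reads per RPM in H3K4me1 replicates 1 to 3, counting error was not separated from this spread. H3K4me1 was highest in replicate 1 at 9 sites, in replicate 2 at 11 and in replicate 3 at 4. The site chr10:35168001-35169000 spanned 1.39, 0.315 and 0 RPM in replicates 1 to 3, and chr13:86818001-86819000 spanned 1.29, 0.420 and 0.479 RPM. The lines also differ in strain and transgene, and the part of strain in this spread was not tested.

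To read a mark in a library that had no part in the choice, sites were chosen again without it. Of 37 sites chosen without H3K4me1 replicate 1, 18 (48.6%) were under 0.8 RPM in it, and of 29 chosen without replicate 2, 13 (44.8%) were. Without replicate 3, 14 of 20 (70%) were under. For H3K27ac, 22 of 32 (68.8%) were under 0.7 RPM in replicate 1 and 22 of 23 (95.7%) in replicate 2. For p300, 24 of 48 sites chosen without replicate 1 (50%) passed in it, and 24 of 35 chosen without replicate 2 (68.6%). Those 24 are the sites of the full rule. Distal p300 sites of all classes numbered 7507 without replicate 1, 8348 without replicate 2 and 6036 with both.

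A bin past a mark threshold stood within 2 kb of 19 of the 24 sites (79.2%, Wilson interval 59.5 to 90.8), where 14.4% of all distal bins under both thresholds had one. At all 19 it was already present in an adjacent bin. H3K4me1 reached its threshold within 2 kb at 17 sites (70.8%, 50.8 to 85.1), against 12.3% of the under-threshold bins, and H3K27ac at 13 (54.2%, 35.1 to 72.1), against 7.94%. Both marks did so at 11 sites, H3K4me1 alone at 6 and H3K27ac alone at 2. Each interval lies above its background, which was not matched for p300. These shares were not computed for the other p300 classes, which also lie near marked bins. A bin past both marks was a median of 6.5 kb from the low-mark sites. For sites with H3K4me1 alone, H3K27ac alone and both marks it was 4, 1 and 1 kb. For sites with both marks, other bins of the same joined site were counted. The libraries are those that the rule used, in bins it did not test for these marks.

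The neighbouring bins were often far past the thresholds, and commonly on 1 side. At chr3:28126001-28127000 the following bin held 4.17 RPM of H3K4me1 and 1.47 RPM of H3K27ac, and the preceding bin held 0 of both. At chr2:40733001-40734000 the preceding bin held 2.47 RPM of H3K4me1 and 2.35 RPM of H3K27ac, and the following bin 0.319 and 0.0588 RPM. At chr2:116885001-116886000 the following bin held 3.34 and 1.26 RPM, and the preceding one 0 of both. Marks stood on both sides at chr13:86818001-86819000, with 1.70 and 0.985 RPM of H3K4me1 and 1.78 and 1.49 RPM of H3K27ac in the preceding and following bins. At chr1:53694001-53695000 H3K27ac was 1.96 and 3.55 RPM in the bins before and after, while H3K4me1 stayed at 0.481 and 0.477 RPM. Among the sites remote from any other p300 bin, chr16:82479001-82480000 had H3K4me1 of 1.34 and 1.16 RPM in the 2 bins before it and 0.428 RPM in the bin after, and H3K27ac no higher than 0.458 RPM.

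**Figure D3:**
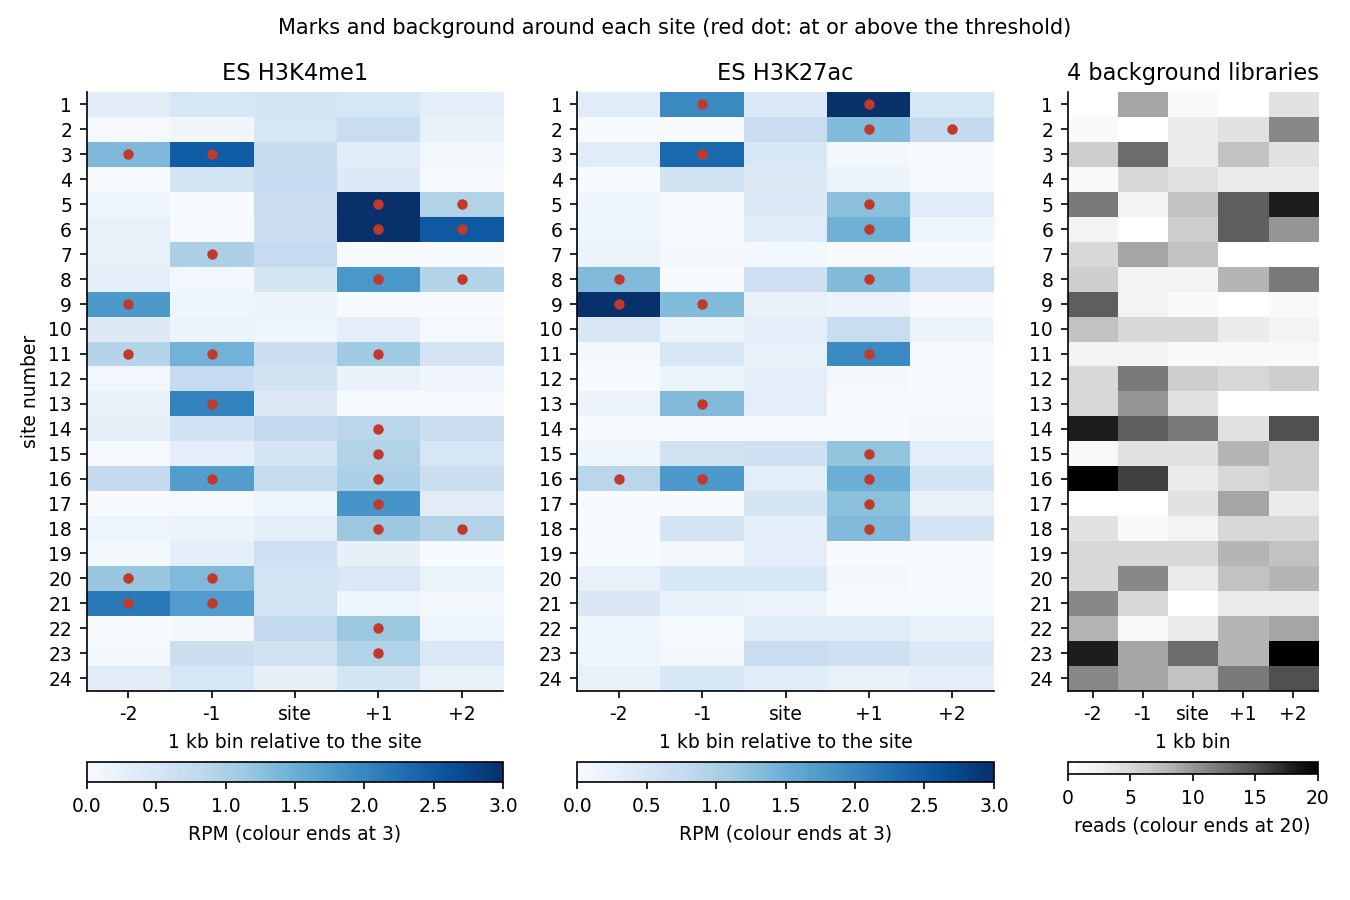
ES H3K4me1 and H3K27ac (RPM, blue) and reads of the 4 background libraries (grey) in the 24 low-mark bins and the 2 bins on either side, 1 row per site in genome order. Red dots mark bins past a threshold, which appear beside 19 of 24 sites, and the background column of the sites themselves is paler than many of the bins with dots.

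For 5 sites no bin within 2 kb passed either threshold, and they are named here because of that result. These were chr2:81686001-81687000, chr7:84980001-84981000, chr10:35168001-35169000, chr15:45917001-45918000 and chr19:49729001-49730000. Their p300 had a median of 3.68 RPM (3.59 to 5.35, means of the libraries), against 4.41 RPM (3.42 to 11.7) at the 19 flanked sites, and the ranges overlap. At chr19:49729001-49730000, p300 was 3.40 and 4.06 RPM, H3K4me1 was 0.297, 0.315 and 0.159 RPM in replicates 1 to 3, and H3K27ac was 0.338 and 0.352 RPM. At chr7:84980001-84981000, p300 was 5.81 and 4.89 RPM, H3K4me1 was 0.0990, 0.315 and 0 RPM, and H3K27ac was 0.113 and 0.470 RPM, with 0.695 RPM of H3K27ac in the following bin, just under the threshold. These were the lowest of the 5 in mean H3K4me1, at 0.257 and 0.138 RPM.

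The other 3 of the 5 passed 0.8 RPM of H3K4me1 in 1 replicate. At chr2:81686001-81687000, p300 was 3.54 and 3.82 RPM and H3K4me1 was 0.693, 0.420 and 1.12 RPM. At chr15:45917001-45918000, p300 was 3.97 and 3.22 RPM and H3K4me1 was 0.693, 0.840 and 0.319 RPM. At chr10:35168001-35169000, p300 was 3.40 and 3.94 RPM, and H3K4me1, given above by replicate, was 0.744 RPM in the preceding bin.

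The set depended on where the bins began. The p300 summit was a median of 220 bp from the nearer edge of the bin and under 250 bp at 13 of 24 sites (54.2%). That was so at 52.9% of sites with H3K4me1 alone, 38.3% with H3K27ac alone and 45.4% with both marks. The stretches within 250 bp of an edge cover 500 bp of a 1 kb bin, so 54.2% is near their share by width. When H3K4me1 and H3K27ac were read in 1 kb centred on the summit, an alternative chosen after seeing the data, 10 of the 24 sites were under both thresholds. Of those 10, 6 had a marked bin within 2 kb. At chr2:40733001-40734000, whose summit is 110 bp from the edge, the centred window held 1.78 RPM of H3K4me1 and 2.01 RPM of H3K27ac. At chr16:82479001-82480000 it held 0.527 and 0.402 RPM, and at chr15:16075001-16076000 0.525 and 0.399 RPM, both still under the thresholds. With bins that start 500 bp later the rule found 30 sites, and only 2 of the 24 overlapped them.

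Averaged around the p300 summits, p300 replicate 2 averaged 13.4 RPM per kb within 200 bp of the summit of replicate 1 and 0.529 at 500 to 1500 bp on either side. H3K4me1 was 0.814 RPM per kb within 200 bp, 0.721 at 500 to 1500 bp and 0.239 at 3 to 5 kb. H3K27ac was 0.806, 0.561 and 0.225 RPM per kb in the same places. Sites with H3K4me1 alone had 2.46, 1.61 and 0.623 RPM per kb of H3K4me1, and sites with both marks 3.36, 3.13 and 1.62. At the low-mark sites H3K4me1 was lower in all 3 places, and higher within 200 bp than at 3 to 5 kb. H3K27ac was 0.658, 0.426 and 0.395 RPM per kb at sites with H3K4me1 alone, and 4.62, 2.88 and 1.81 with both marks. The low-mark sites thus had more H3K27ac than those with H3K4me1 alone up to 1500 bp, and less at 3 to 5 kb. This difference was not tested. Within 200 bp, narrower than the bin, both marks averaged above the limits of 0.8 and 0.7 RPM.

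**Figure D4:**
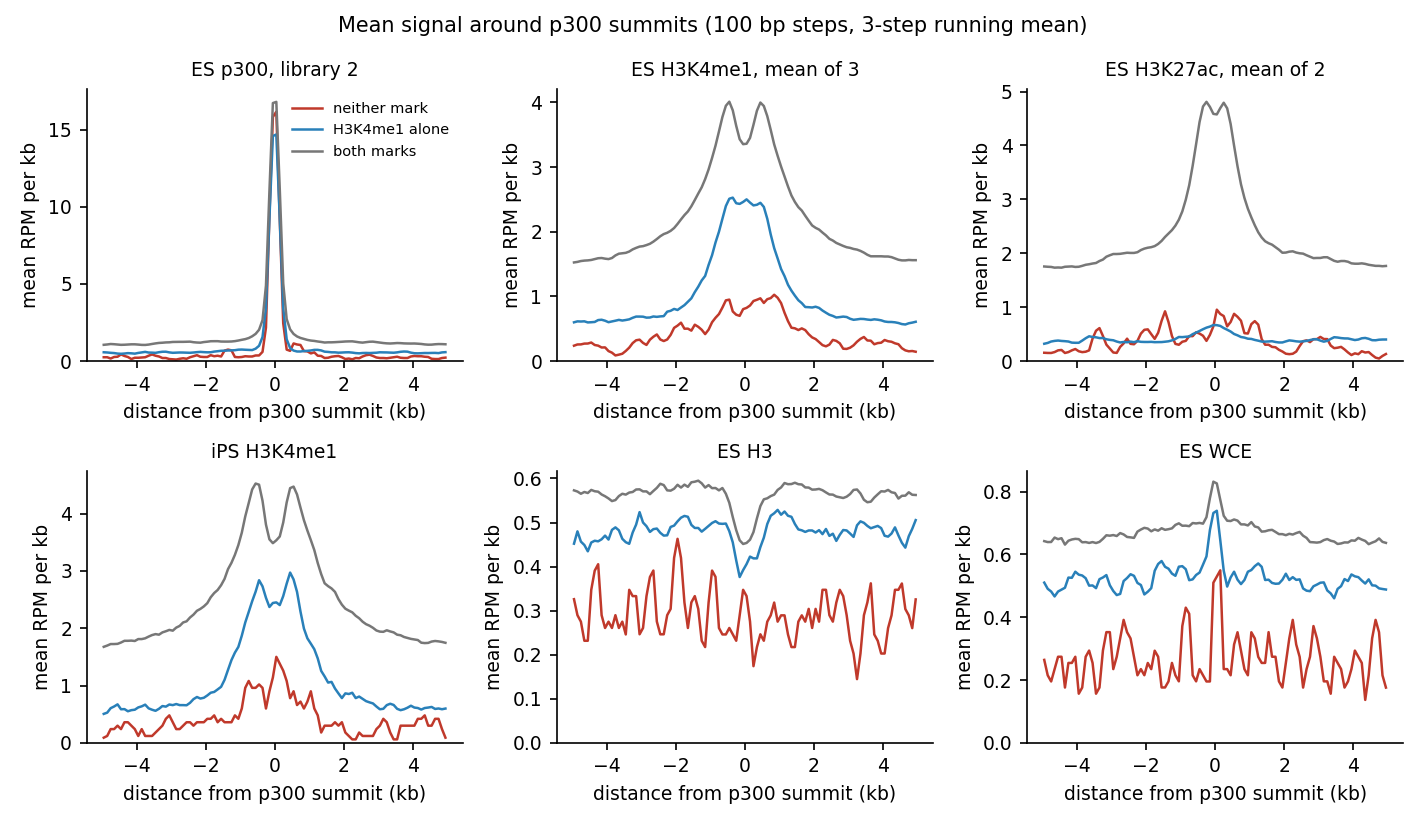
Mean signal per kb against distance from the p300 summit for low-mark sites (red, drawn as neither mark), sites with H3K4me1 alone (blue) and sites with both marks (grey), in 6 kinds of library. Within 200 bp the p300 peaks average 13.4, 12.7 and 14.8 RPM per kb, and H3K27ac averages 0.806, 0.658 and 4.62 RPM per kb. H3K4me1 and iPS H3K4me1 rise in red to below the blue and grey lines. The running means of ES H3 and WCE are lowest in red.

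Few background reads fell in these bins. The libraries of ES H3, liver H3, MEF H3 and liver WCE, none used by the rule, gave a median of 4 reads per site in sum (0 to 13). Sites with H3K27ac alone were alike, with a median of 5, and sites with H3K4me1 alone and both marks held 11 and 14, against 9 in all distal bins. Under 10 such reads were found at 22 of the 24 sites (91.7%), at 83% of those with H3K27ac alone, 39.5% with H3K4me1 alone, 20% with both marks and 53.2% of all distal bins. The 10 libraries that the rule did not use are these 4 and 6 libraries of marks and Rfx1 in other cells. Empty windows and stretches over all 10 therefore also carry mark signal, and were not computed for all distal bins. Of 10 windows of 100 bp in the bin, a median of 6 held no read of any of these 10 libraries. At sites with H3K4me1 alone, H3K27ac alone and both marks it was 1, 5 and 0. The longest stretch within 2 kb without such a read had a median of 808 bp, and reached 500 bp at 19 of the 24 sites (79.2%). That was so at 25.5% of sites with H3K4me1 alone, 72.3% with H3K27ac alone and 12.9% with both marks. At chr7:26416001-26417000 the stretch was 2654 bp and at chr4:145972001-145973000 it was 2623 bp, and both bins after the latter held 0 background reads.

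ES H3 alone was also low in these bins. Its median was 0.208 RPM at the low-mark sites and 0.313 RPM over all distal bins, and 16 of the 24 sites were below the latter. By definition, no more distal bins lie below that median than at or above it. Sites with H3K27ac alone had the same median, 0.208 RPM, and a mean of 0.228 RPM. Mean ES H3 was 0.221 RPM (0.165 to 0.291) against 0.386 RPM, and mean ES WCE, which the rule used, was 0.270 RPM (0.198 to 0.360) against 0.378 RPM. The part of this low read coverage in the low mark values was not tested. With at least 10 of the background reads required, an alternative chosen after seeing the data, 2 low-mark sites remained of 4785 distal p300 sites (0.0418%). One of them was chr12:14114001-14115000, with 12 background reads, and the other lies on chromosome 18.

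Apart from liver H3K4me3, which defines distal bins, the libraries of other cells took no part in the choice. iPS H3K4me1 gave 35 reads over the 24 sites, a mean of 0.628 RPM (0.438 to 0.874). That was above the 0.304 RPM of all distal bins and the 0.0982 RPM of distal bins under both ES thresholds. It was below the 2.45 RPM of sites with H3K4me1 alone and near the 0.596 RPM (0.460 to 0.759) of sites with H3K27ac alone. At least 1 iPS read fell in 15 of the 24 bins and none in 9, where 1705843 of the 2278125 distal bins had none. The 5 sites without a marked neighbour had 0.517 RPM (0.190 to 1.13, 6 reads) and the 19 others 0.658 RPM (0.440 to 0.944, 29 reads), and these intervals overlap. Of the 6 reads, 5 were at chr19:49729001-49730000. The highest were chr11:9988001-9989000 and chr19:49729001-49730000, with 5 reads or 2.15 RPM each, named after their values were seen. The iPS value and the ES mean of 0.529 RPM are from different cells and different depths, and their difference was not tested.

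MEF H3K4me1 averaged 0.0548 RPM (0.0330 to 0.0855, 19 reads), below the 0.194 RPM of under-threshold bins. Liver H3K4me1 averaged 0.0619 RPM (0.0309 to 0.111, 11 reads) against 0.179 RPM. Both lie beneath their backgrounds, and so do MEF H3 at 0.159 RPM (0.102 to 0.236) against 0.338 RPM and liver H3 at 0.191 RPM (0.116 to 0.294) against 0.354 RPM. Divided by H3 of the same cells, H3K4me1 was 0.345 in MEFs and 0.325 in liver, against 0.575 and 0.508 in the under-threshold bins, and iPS H3K4me1 over ES H3 was 2.84 against 0.274. Liver H3K27ac had 1 read over all 24 sites. NPC Rfx1 had 0 reads, which allows a mean of up to 0.218 RPM. At 10 of the 24 sites none of the MEF, liver and NPC libraries of H3K4me1, H3K27ac and Rfx1 had a read. The same share over all distal bins was not computed, so this count has no background.

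**Figure D5:**
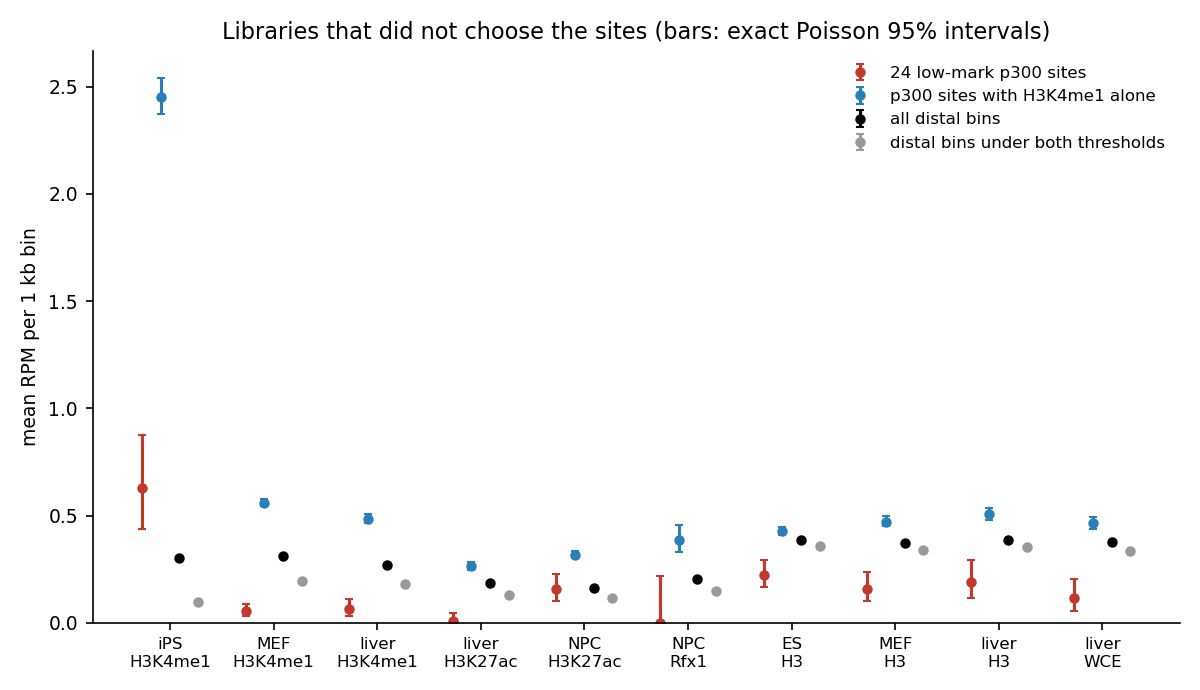
Mean RPM per 1 kb bin in the 10 libraries that did not choose the sites, for low-mark p300 sites, p300 sites with H3K4me1 alone, all distal bins and distal bins under both ES thresholds, with exact Poisson 95% intervals. The low-mark sites exceed the distal bins in iPS H3K4me1 (0.628 RPM) and lie below them in MEF and liver H3K4me1 and in all 4 H3 and WCE libraries. Sites with H3K27ac alone, not drawn, had 0.596 RPM of iPS H3K4me1.

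A bin was called enriched in one of these libraries where its count passed a Poisson test against its H3 or WCE background at a Benjamini-Hochberg adjusted p of 0.01 over all bins and was at least 3-fold over it. Such a call compares the reads of 2 libraries and not cell types. None of the 24 bins was called in iPS H3K4me1 (2.18% of all distal bins were), MEF H3K4me1 (4.13%), liver H3K4me1 (3.43%), liver H3K27ac (1.61%) or NPC Rfx1 (0.101%). With 24 sites, 0 calls leave a share of up to 13.8% by the Wilson interval, so none of these shares was below its background by a detectable amount. Alternatives gave up to 3 calls among their own sites: in iPS H3K4me1 3 of 37 without ES H3K4me1 replicate 1, and in liver H3K4me1 2 of 30 with bins that start 500 bp later. Sites with H3K4me1 alone were called in the iPS library at 29.4% (25.7 to 33.4) and sites with both marks at 61.4%. Sites with H3K27ac alone were like the low-mark sites, with 0 of 47 called in the bin (0 to 7.56) and 12.8% within 2 kb. Within 2 kb, 3 of the 24 sites had a called iPS bin (6.73% of distal bins), 1 a MEF bin (12.6%), 1 an NPC H3K27ac bin (3.38%), and none a liver H3K4me1 (10.3%), liver H3K27ac (5.12%) or Rfx1 bin (0.782%). The iPS calls were beside chr2:40733001-40734000, chr3:28126001-28127000 and chr11:9988001-9989000, each of which also had marked ES bins beside it.

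NPC H3K27ac was called in 1 of 24 bins (4.17%, 0.739 to 20.2), against 0.79% of all distal bins. This bin was chr2:40733001-40734000, with 11 NPC reads or 1.58 RPM. No member was called with repeated reads kept (0 of 24 sites) or with bins that start 500 bp later (0 of 30). For these, loss of the call and loss of the site were not separated. None was called with each mark under 0.5 RPM (0 of 5) or without H3K4me1 replicate 3 (0 of 20). There the call itself did not change, but the site left the set. Its mean H3K4me1 was 0.733 RPM, and replicates 1 and 2 held 0.990 and 1.05 RPM. ES H3K27ac at chr2:40733001-40734000 was 0.338 and 0.587 RPM in the 2 replicates. It averaged 2.35 RPM in the preceding bin and 2.01 RPM in the 1 kb around the p300 summit, both above the NPC value. The site chr12:14114001-14115000 had 10 NPC H3K27ac reads (1.44 RPM) and 6 MEF H3K4me1 reads and was not called. Its ES H3K27ac was 0 RPM in both replicates and in 3 of the 4 bins around it. Together these sites held 21 of the 26 NPC H3K27ac reads at the 24 sites. No such read fell at 18 sites, nor in 1244426 of the 2278125 distal bins.

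The low-mark sites were far from other p300 bins, promoters included: the nearest lay a median of 312 kb away, against 80 kb for sites with H3K4me1 alone, 107 kb with H3K27ac alone and 13 kb with both marks. Distances were taken from the top p300 bin of a site, and other bins of the same joined site were counted. This shortens them for joined sites, as 6131 bins made the 5428 sites with both marks. All 24 low-mark sites were single bins, and the 47 sites with H3K27ac alone held 47 bins. Another p300 bin was adjacent at 2 of the low-mark sites, chr1:184018001-184019000 and chr7:26416001-26417000. The nearest bin past the H3K4me3 limit was 38 kb away in the median, from 3 to 209 kb, against 17, 21 and 8 kb for the other classes. A bin past both ES marks lay within 10 kb of 14 of the 24 sites (58.3%). The share was 62.8% with H3K4me1 alone, 72.3% with H3K27ac alone and 95.2% with both marks.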

How the data were processed

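The files the authors deposited list aligned reads by chromosome as signed positions, a minus sign marking the reverse strand, in sections named U0 and U1 (4.72 to 8.57% of reads in U1), both used. They hold no score or normalised value. How reads were aligned, and to which build, is not given in the sources used here. Therefore no gene annotation was joined and coordinates are 1-based as in the files. Per the labels' protocols, chromatin of about 500 bp was amplified over 18 PCR cycles. Reads were counted once per position and strand, moved 100 bp to the fragment centre, counted in 1 kb bins and scaled to RPM (Python 3.11.15, numpy 2.4.6, scipy 1.17.1, pandas 2.3.3). Classes, calls, summits and strand gaps were checked on simulated bin counts and read positions, with planted sites away from the thresholds. The counting of reads, sites near a threshold and false calls were not part of that check. A pass limit for recovered sites was lowered after its first run. No test across samples was possible, since replicated libraries were used to choose the sites and the others are single. Named sites are the 10 highest by p300 over WCE, those called in other libraries, and those nearest to each threshold, leaving out chromosome 18. Others were named after their values were seen, such as those without a marked neighbour. Members and lists were chosen with earlier results of these data known. Where repeated reads came from PCR was not tested, and intervals cover counting error only.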

Additional observations from a re-analysis of the deposited data

How the results depend on the processing

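The set depended on the thresholds and on single libraries. Of 180 values recomputed under alternatives, 159 stayed within the main interval or within 1.5 times. Many of these are call shares at 0 of 24 sites, whose interval up to 13.8% leaves little room to move. The 21 outside lay in the number and share of sites, the left-out libraries, the share called in NPC H3K27ac and the flanked share. The number of sites fell to 10 with p300 of at least 4 RPM (0.244% of distal p300 sites), to 5 with each mark under 0.5 RPM (0.083%, all 5 with a marked neighbour at these lower limits, 100%), and, as choices made after seeing the data, to 2 with at least 10 background reads (0.0418%) and to 16 over all classes with marks read around the summit (0.265%). Leaving out 1 library gave 20 to 48 sites (0.331 to 0.639%), the most without p300 replicate 1 (48) and without H3K4me1 replicate 1 (37, or 0.613%). Shares under the threshold in the left-out library ranged from 44.8 to 70% for H3K4me1 and 68.8 to 95.7% for H3K27ac. Shares past it were 50 to 68.6% for p300. At the 24 sites 79.2, 95.8 and 100% of library values met these limits. The same values chose the sites, and the rule itself fixes the 100% for p300.

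The flanked share was 62.5 to 90% under the other alternatives. The share of members called in NPC H3K27ac was 0% with marks under 0.5 RPM, with bins starting 500 bp later and with repeated reads kept. It was 0 to 6.9% with 1 library left out. A share of 0% can mean that the called site left the set. In the other libraries, where no bin was called, the alternatives gave at most 8.11% (iPS H3K4me1, 3 of 37), 6.67% (liver H3K4me1), 3.45% (MEF H3K4me1), 3.33% (liver H3K27ac) and 0% (Rfx1). With repeated reads kept, 17 of the 24 sites were found again. With ES H3 in place of WCE all 24 were, and with reads moved 66 bp 23 were. No paired analysis was possible because no result comes from a test between groups that share replicate numbers. Depth limits the shallow iPS and Rfx1 libraries most.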
